A study of Mus musculus with 2 samples.

Results

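The 10 aquaporin genes Aqp1 to Aqp9 and Aqp11 were examined in sorted cells of the embryonic mouse kidney. They were taken as all probe sets that the platform annotation gives to exactly 1 of these genes, which gave 22 probe sets of the 34945 on the array that name 1 gene, and 10 of its 18193 genes. RNA came from 2 pools of GFP-positive cells, both from E15.5 (Theiler stage 23) kidneys of CD-1 mice carrying the transgene Tg(TIE2GFP)287Sato, in which the Tie2 (Tek) promoter drives GFP. Each pool held approximately 5 to 10 kidneys, and each was hybridised to 1 Affymetrix 3' expression array after 2 rounds of amplification. Both arrays belong to 1 group, with no untreated, adult or other cell type arrays beside them, so there was no contrast to test and no p-value is given. Whether the pools were from separate litters is not stated, so some of the variation between the arrays can be technical. The sample titles read FLK1 although the reporter is Tie2, and the labelled source is renal artery and vein endothelium although whole kidneys were dissociated.

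Aquaporins are tetrameric membrane channels that let water cross a cell membrane along an osmotic gradient. The aquaglyceroporins among them also pass glycerol and other small solutes, and the unorthodox members reside largely on internal membranes. In the adult kidney Aqp1 lines the proximal tubule, the thin descending limb and the descending vasa recta, Aqp2 is the channel that vasopressin moves to the apical face of collecting duct cells, and Aqp3 and Aqp4 form the basolateral exit of the same cells. Outside the tubule, Aqp1 is the water channel of many capillary endothelia and of the red cell.

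Aqp1 was the only one of the 10 genes above background in both pools. Its probe set 1416203_at gave an intensity of 804 in replicate 1 and 1275 in replicate 2 (1039 ± 333 arbitrary units, mean ± SD, n = 2 arrays), which is 4.04 and 6.25 times the background limit. That limit is the 95th percentile of the intensities of 86 probe sets for 77 chemosensory receptor genes (odour, pheromone and taste receptors), 199 in replicate 1 and 204 in replicate 2, and above background means over it on both arrays. Of the 22 aquaporin probe sets 1 (4.55%) passed, where 55.1% of all probe sets with 1 gene did. Counted by each gene's brightest probe set, 1 of 10 aquaporin genes passed, against 61.2% of all genes. On each array taken alone 3 of the 22 passed, beside 58.6% of all probe sets with 1 gene in replicate 1 and 59.2% in replicate 2. Of the other 21 probe sets, 2 passed in replicate 1 alone, 2 in replicate 2 alone and 17 on neither array, with intensities of 4.42 to 190 among those 17. The corresponding shares of all probe sets with 1 gene were 3.49%, 4.12% and 37.3%.

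**Figure D1:**
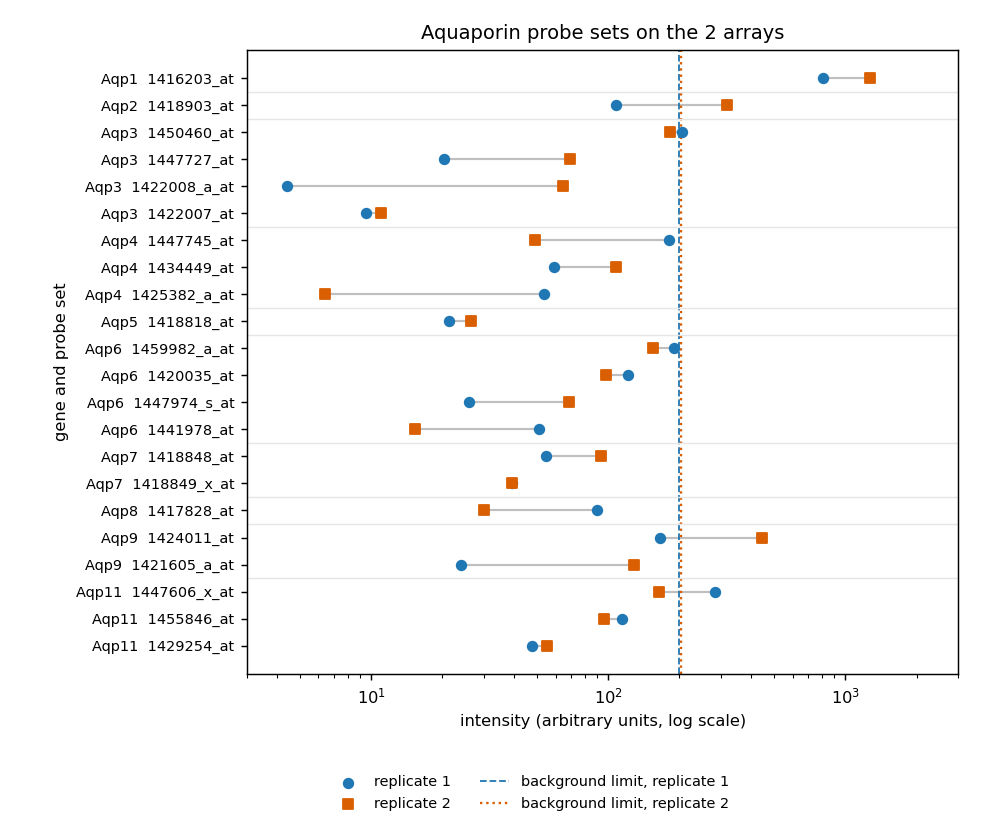
Intensity (x axis, arbitrary units, log scale) of each of the 22 aquaporin probe sets (rows) in replicate 1 (circles) and replicate 2 (squares), with the background limit of each array as a dashed or dotted line. Both symbols of the Aqp1 probe set lie to the right of the limits, the Aqp2 probe set and 1 each of Aqp3, Aqp9 and Aqp11 straddle them, and the other 17 lie to the left on both arrays.

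Promoter sequences are shown for the channel that passed in both pools and for Aqp2, the vasopressin-regulated channel, whose call differed between the pools. Each runs from 250 bases before to 50 bases after the RefSeq gene start, with matches to the searched motifs in capitals. Aqp1 is from GRCm38.p6 chr6:55336049-55336348 and Aqp2 from chr15:99578806-99579105, both on the + strand, read 5′ to 3′.
Aqp1: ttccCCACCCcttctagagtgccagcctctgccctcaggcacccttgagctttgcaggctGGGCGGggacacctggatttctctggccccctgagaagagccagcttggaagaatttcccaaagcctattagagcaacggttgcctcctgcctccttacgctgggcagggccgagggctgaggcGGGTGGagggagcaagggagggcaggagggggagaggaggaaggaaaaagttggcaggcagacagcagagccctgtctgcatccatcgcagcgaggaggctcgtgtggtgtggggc
Aqp2: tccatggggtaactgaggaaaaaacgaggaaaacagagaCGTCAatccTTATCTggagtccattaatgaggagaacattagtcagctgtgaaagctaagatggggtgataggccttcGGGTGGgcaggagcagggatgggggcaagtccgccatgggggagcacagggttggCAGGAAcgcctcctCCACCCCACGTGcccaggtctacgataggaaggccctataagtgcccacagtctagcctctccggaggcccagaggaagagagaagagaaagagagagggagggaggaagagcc

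Motifs were searched on both strands. GC boxes were read as GGGCGG and sites of Kruppel-like factors as CCACCC. Sites of ETS factors were read as the whole string TTCCTG, so shorter runs such as TTCC, which the Aqp1 window holds, were not counted. Sites of zinc finger factors such as Gata2 were read as AGATAA. The core of the hypoxia response was read as ACGTG, the start of a cyclic AMP response element as TGACG, and the box of Goldberg and Hogness as TATAAA. The motifs were chosen after the intensities were seen. The Aqp1 window held 1 GC box and 2 Kruppel-like sites and no match to the others, and its GC content was 62.7%, against a median of 52.7% for all promoters. The Aqp2 window held 2 Kruppel-like sites, 1 ETS site, 1 Gata2-type site and 1 start of a cyclic AMP response element. It also held 2 hypoxia cores, which lie on opposite strands and overlap. Among 32851 promoters of equal length, 35.7% held the GC box, 31.5% the Kruppel-like site, 30.6% the ETS site and 11.2% the Gata2-type site. The hypoxia core was held by 19.6%, the start of the cyclic AMP response element by 20.8% and the Goldberg-Hogness box by 13.6%. Of the 10 genes 9 had a promoter in the table, with 11 promoters in all, and Aqp4 had no entry. In these 11 windows the Goldberg-Hogness box, read as the whole string TATAAA, matched only at Aqp3. Close runs such as TATAAG, which the Aqp2 window holds, were not counted. A match is a run of letters and was not tested as a binding site, and the array measured no binding.

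Among the orthodox water channels, Aqp2, Aqp4, Aqp5, Aqp6 and Aqp8 were not above background in both pools. Aqp2 gave 108 in replicate 1 and 318 in replicate 2, below the limit in the former and 1.56 times the limit in the latter. Its difference between the pools was 2.89-fold after centring on probe sets above background, and with 1 probe set it had no other measurement on the array. Aqp5, the channel of salivary, lacrimal and lung glands, gave 21.2 and 26.3, far under the limit in both pools. Aqp8, a channel of liver, pancreas and gut epithelium, gave 89.8 and 30.0.

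Aqp4 and Aqp6 were each measured by several probe sets, none of which reached the limit on either array. Aqp4, which is also the channel of astrocyte end feet, gave 181 and 49.0 with its brightest probe set, 59.0 and 108 with another and 53.6 and 6.41 with the last. The probe sets of Aqp4 did not point the same way, with 2 brighter in replicate 1 and 1 brighter in replicate 2. Aqp6, a channel of intracellular vesicles in acid-secreting intercalated cells, gave 190 and 155 with its brightest probe set, and its other 3 ranged from 15.4 to 122. That brightest Aqp6 probe set shares its source record with another Aqp6 probe set that gave 25.9 and 68.6, so they are not independent measurements. It was the nearest to the limit of the 17 that passed on neither array, at 0.954 and 0.759 times the limit.

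The aquaglyceroporins Aqp3, Aqp7 and Aqp9 had 8 probe sets, none above background in both pools. Aqp3, the basolateral channel of collecting duct cells that also passes glycerol, gave 206 and 182 with its brightest probe set, just over the limit in replicate 1 and just under it in replicate 2. The other 3 Aqp3 probe sets ranged from 4.42 to 69.1, and 2 of them derive from the same source record as the brightest, so the 4 probe sets did not give 1 level for the gene. Aqp7, the glycerol channel of adipocytes that is also found in the straight proximal tubule, gave 54.5 and 93.1, and 39.5 and 39.3 with a second probe set from the same record. Aqp9, the glycerol channel of hepatocytes and leukocytes, gave 166 and 446 with its brightest probe set and 24.0 and 128 with the other. Both Aqp9 probe sets were brighter in replicate 2, by 2.62-fold and 5.24-fold, and only the brighter of them passed there, at 2.19 times the limit.

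Aqp11, an unorthodox channel of the endoplasmic reticulum whose loss gives mice cystic kidneys, passed in replicate 1 alone. Its brightest probe set, 1447606_x_at, gave 282 and 163, and the suffix x marks probes that can bind other transcripts. The other 2 probe sets of Aqp11, which carry no such mark, gave 114 and 96.5, and 47.9 and 55.1, under the limit in both pools. Of the 22 probe sets 2 carry the suffix x, 1 carries s, for probes shared by transcripts of several genes, and 4 carry a, for transcripts of the same gene, and the 1 of Aqp1 carries none of these.

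The pools were then compared with each other, as the log2 intensity of replicate 1 minus that of replicate 2 after centring on probe sets above background. Aqp1 was higher in replicate 2 by 1.55-fold, a log2 difference of -0.63. This is close to the spread of other probe sets at its level, since the 3460 probe sets above background within 0.5 log2 of Aqp1 had an SD of 0.57. Probe sets above background differed by over 2-fold in 5.00% of cases, and Aqp1 was not among them. Of the 21 aquaporin probe sets not above background 10 (47.6%) differed by over 2-fold, where 38.6% of all such probe sets did. Of these 10, 4 were higher in replicate 1 and 6 in replicate 2, where 47.9% and 52.1% of all dim probe sets over 2-fold apart were. The log2 differences of all 21 aquaporin probe sets not above background had an SD of 1.58, where that of all such probe sets was 1.40. Over all 22 the differences ran from -3.83 for an Aqp3 probe set to 3.10 for an Aqp4 probe set, with a median of -0.18, against 0.01 over all probe sets with 1 gene, and 12 of the 22 were higher in replicate 2, beside 49.6% of all. Both of these extremes were probe sets with intensities far below the limit on each array, where the arrays differed most.

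**Figure D2:**
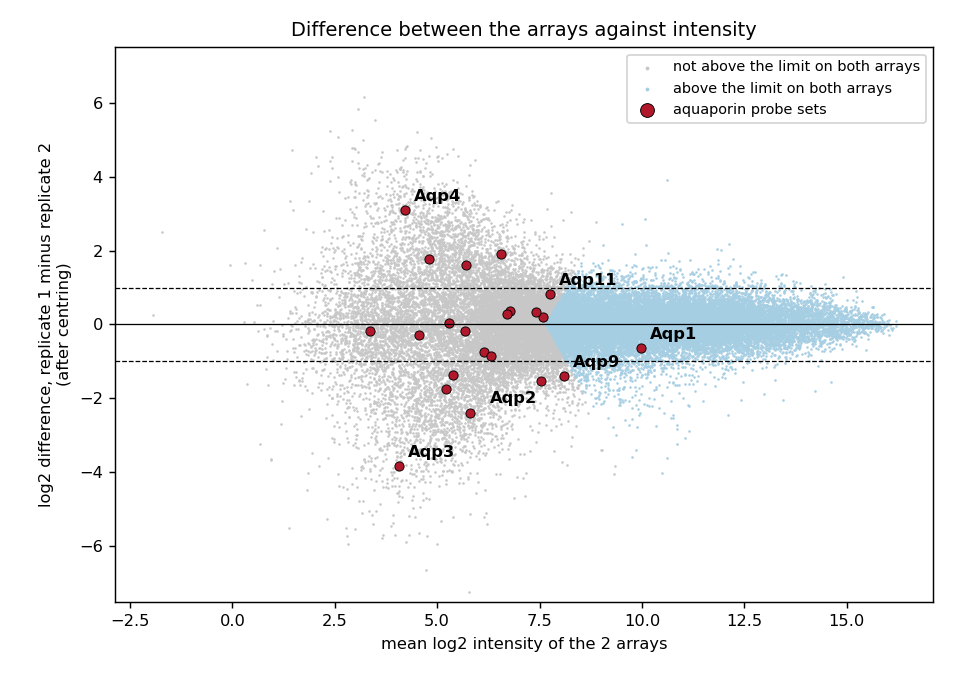
Log2 difference between the arrays, replicate 1 minus replicate 2 after centring (y axis), against the mean log2 intensity (x axis) for all 34945 probe sets with 1 gene, with the 22 aquaporin probe sets in red and dashed lines at 2-fold. Aqp1 lies in the blue cloud of probe sets above background at -0.63, and the labelled Aqp3 and Aqp4 points at -3.83 and 3.10 lie in the wide grey cloud of dim probe sets.

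The reporter gene and the markers of other cells set the context for these levels. Tek gave 15908 and 21499 and Kdr gave 8939 and 12139, and all 15 endothelial markers were above background, among them the junction gene Cdh5 at 22435 and 20733. In the list named proximal tubule and thin limb, 0 of 8 measured genes were above background, beside 61.2% of all genes. These are proximal tubule genes, so the thin limb, which also uses Aqp1, was not covered by the list. Slc34a1 gave 130 and 196, Lrp2 gave 197 and 163 and Cubn gave 285 and 197. The summed intensity of the 8 was 1260 in replicate 1 and 1077 in replicate 2. Cubn and Slc5a2 were above the limit in replicate 1 alone. Erythroid genes were above background for 7 of 11 (63.6%, beside 61.2% of all genes), with Hbb-y at 55397 and 48789. The sum of the erythroid genes, most of it Hbb-y, was 58907 in replicate 1 and 51869 in replicate 2. The embryonic globin genes Hba-x (973 and 492) and Hbb-bh1 (1127 and 467) were above background and brighter in replicate 1. The other 4 that passed were brighter in replicate 2. They were the anion exchanger Slc4a1 (397 and 616), the heme synthesis enzyme Alas2 (366 and 520), Ermap (217 and 307) and the transcription factor Gata1 (233 and 419). The median log2 difference of the 7 was -0.47. With 2 arrays a gene is higher on 1 or the other, and 49.6% of all probe sets with 1 gene were higher in replicate 2. A direction shared with an aquaporin therefore measures no likeness. The erythroid membrane gene Rhag was below the limit on both arrays at 35.0 and 3.66, as was Epb42 at 10.8 and 11.4. So were the globin gene Hba-a1 (19.6 and 69.9) and Klf1 (132 and 174). These and the 4 that were brighter in replicate 2 were named after their values were seen. Related globin copies can share probes, and the probe sets used for Hbb-y and Hbb-bh1 carry the suffix x, so the globin values are uncertain.

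Summed intensities of stromal, mural and macrophage genes were higher in replicate 2, and that of endothelial genes was not (206888 and 178638). After centring 12 of the 15 endothelial genes were higher in replicate 1. The 3 higher in replicate 2 were Tek, Kdr and Pecam1 (1257 and 2247), the last named after its values were seen. Renal stroma genes, 10 of 11 above background, summed to 27610 and 91596, with Foxd1 at 775 and 1775, Pdgfra at 720 and 4811 and Dcn at 993 and 3690, and Tcf21 passed in replicate 2 alone (186 and 352). Smooth muscle and mural genes, 4 of 8 above background, summed to 6647 and 11364. Among these Acta2 gave 2289 and 3693, Myh11 (32.4 and 278) and Tagln (98.8 and 334) passed in replicate 2 alone, and Cnn1 (7.17 and 3.83) on neither array. Macrophage genes, 9 of 9 above background, summed to 82682 and 101474, with Csf1r at 34030 and 36806, Adgre1 at 4305 and 7632 and Cd68 at 2358 and 2218. The part of these cells in the Aqp1 level was not tested. In such sorted pools fewer cells of a type and less RNA per cell cannot be told apart.

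Aqp2 and Aqp9, which passed in replicate 2 alone, were set beside markers of some of the cells that use them. For Aqp9 these were neutrophil genes. Macrophage genes, also of leukocytes, are given above with 9 of 9 above background, and hepatocyte genes were not listed. Of 12 ureteric bud and collecting duct genes 3 were above background in both pools, 5 in replicate 1 and 7 in replicate 2, with sums of 2491 and 3102. Ret gave 203 and 163, Wnt11 gave 374 and 564 and Wnt9b gave 188 and 259. Wnt9b passed in replicate 2 alone. So did Calb1 (125 and 408) and the sodium channel subunits Scnn1a (61.8 and 220) and Scnn1b (187 and 346), chosen after their values were seen. The keratin gene Krt18 (402 and 154), also chosen so, passed in replicate 1 alone, as Ret did, and was 2.67-fold higher there, while Hoxb7 (85.2 and 50.8), Elf5 (44.9 and 82.5) and Foxi1 (15.9 and 20.2) passed in neither. Of 8 neutrophil genes 2 were above background in both pools, S100a8 at 1079 and 817 and Mpo at 994 and 918, while S100a9 was not (30.7 and 13.9). Neutrophil genes passed for 3 of 8 in replicate 1 and 5 of 8 in replicate 2, with sums of 2844 and 2805 that are carried by S100a8 and Mpo. Camp (53.0 and 305), Ltf (164 and 277) and Ngp (176 and 272) passed in replicate 2 alone, and Prtn3 (206 and 173) in replicate 1 alone. Elane (141 and 28.9) passed on neither array and was 4.99-fold higher in replicate 1. All of these were named after their values were seen. Adipocyte genes, beside which Aqp7 was set, reached 0 of 4, with Adipoq at 69.9 and 40.9, Cidec at 11.03 and 45.8, Lep at 28.4 and 15.6 and summed intensities of 235 and 139. The part of these cells in the aquaporin levels was not tested.

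Genes of 4 functional lists were set beside the channels, and each count is given against the share of all genes that passed. In the list of vasopressin signalling 9 of 12 genes passed, a share of 75.0% beside 61.2% of all genes. The 3 that did not were the hormone and its receptors. The collecting duct receptor Avpr2 passed on neither array (134 and 150). The hormone gene Avp passed in replicate 2 alone (188 and 211), and the vascular receptor Avpr1a in replicate 1 alone (233 and 112). The 9 that passed encode cyclic AMP enzymes and their effectors, which many receptors share, among them the G protein subunit Gnas at 45771 and 47796. Their median log2 difference between the pools was -0.27.

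In the list of trafficking and anchoring genes 9 of 12 passed (75.0%, beside 61.2% of all genes). Dag1, the dystroglycan of the complex that anchors Aqp4, gave 6558 and 6580, and Dmd, its dystrophin partner, gave 236 and 639, a 2.65-fold difference that was the only one over 2-fold among the 9 that passed. Dtna, the dystrobrevin of that complex, was below the limit at 98.5 and 116. Mal, a raft protein that binds Aqp2, passed in replicate 2 alone (129 and 267, a 2.02-fold difference), and Myo5b, the motor of Aqp2 recycling vesicles, on neither array (127 and 167).

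Glycerol handling genes passed for 3 of 5 (60.0%, beside 61.2% of all genes). Gpd2, the mitochondrial glycerol phosphate dehydrogenase, gave 3800 and 3664, and the lipases Pnpla2 and Mgll passed as well. Gpd1, its cytosolic counterpart, passed in replicate 1 alone (233 and 99.2), and the hormone-sensitive lipase Lipe on neither array (59.9 and 12.4). In the list of tonicity and urea genes 6 of 8 passed (75.0%, beside the same 61.2%). Nfat5, the transcription factor of the osmotic response, gave 15678 and 13616, and the urea transporter Slc14a2 gave 328 and 362. Slc14a1, the urea transporter that accompanies Aqp1 in descending vasa recta and red cells, passed in replicate 2 alone (30.0 and 382), and Slc6a12, the betaine transporter, on neither array (8.21 and 14.0).

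Beyond the 10 genes, the array measures 2 further members of the family. Aqp12, a channel of pancreatic acinar cells, was above background with its 1 probe set at 396 and 409, and differed between the pools by 1.01-fold. Mip, the aquaporin of lens fibres, was not, at 52.8 and 28.2.

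**Figure D3:**
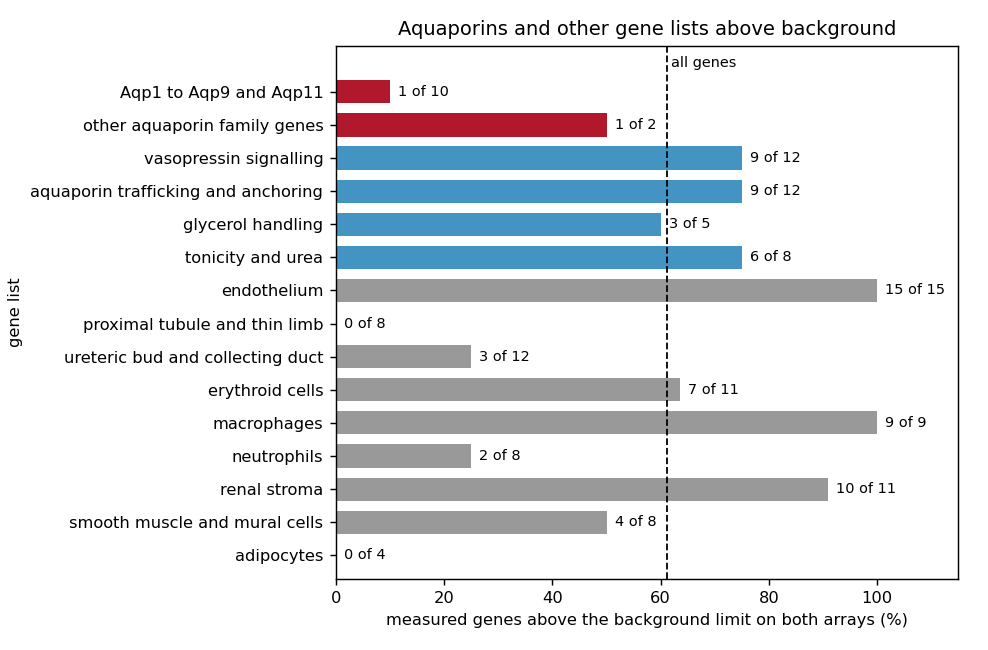
Percent of measured genes above the background limit on both arrays (bars). Red bars are the 10 aquaporins and the 2 further family members, blue bars 4 functional lists and grey bars 9 lists of cell type markers. Counts stand beside each bar, and the dashed line is the share of all genes, 61.2%. The 10 aquaporins stand at 1 of 10, the vasopressin and trafficking lists at 9 of 12 each, the endothelial list at 15 of 15 and the proximal tubule list at 0 of 8.

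Calls for the dim aquaporins depended on where background was set. With a limit of 100 on both arrays, the minimum raw level named in the methods of the study, 6 of 10 aquaporin genes passed, beside 72.7% of all genes, and 6 of the 22 probe sets, beside 67.9% of all. These were Aqp1, Aqp2, Aqp3, Aqp6, Aqp9 and Aqp11. With the limit doubled Aqp1 was again the 1 gene that passed, beside 52.5% of all genes. Aqp12 did not pass the doubled limit, since its 396 in replicate 1 fell short of 398.

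**Figure D4:**
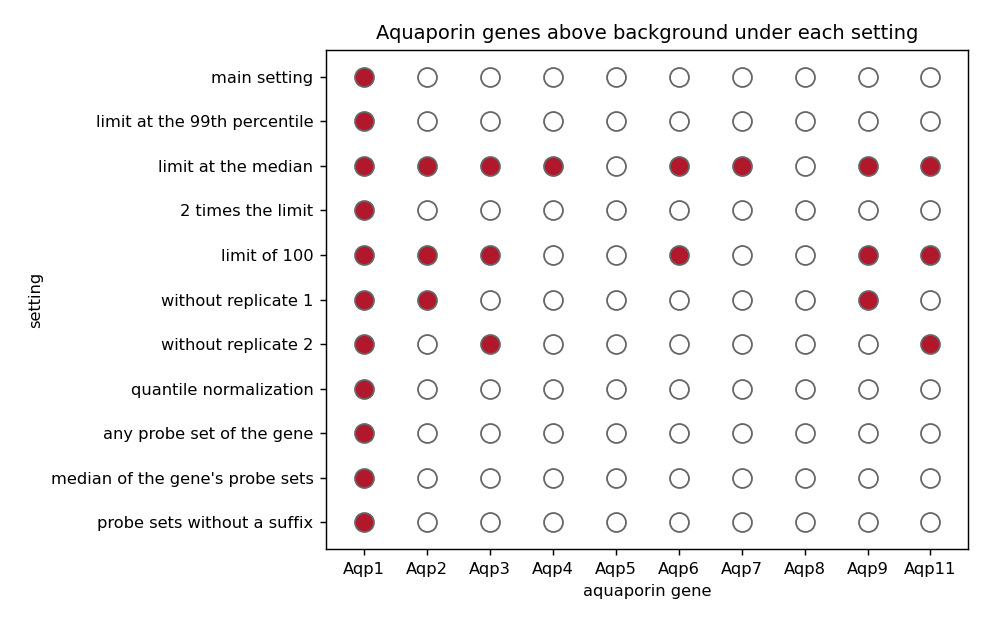
Aquaporin genes (columns) above background under the main setting and each alternative (rows), with filled circles for genes that passed and open circles for those that did not. Aqp1 is filled in every row, Aqp5 and Aqp8 in none, and the row for a limit of 100 has 6 filled circles.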

How the data were processed

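The deposited table held 1 intensity per probe set for 2 arrays, each a pool of sorted Tie2-GFP cells. Per the labels the intensities came from GCOS, the Affymetrix scanner software, on a linear scale with no detection calls. The study's own methods concern a different array and a different amplification, and of these methods only the minimum level of 100 was used, as an alternative limit. With 2% of values trimmed at each end the mean was 1500 on both arrays, so the deposited intensity values had been scaled to a shared mean. Medians were 233 and 247. Control probe sets for Gapdh were brighter at the 3' than the 5' end by factors of 19.5 in replicate 1 and 22.3 in replicate 2, and those for Actb by 3.15 in replicate 1 and 3.67 in replicate 2. The part of this 3' bias in the low aquaporin levels was not tested. The number of arrays, 2, limits the precision.

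Probe sets were named from the platform annotation. Of 45101, 34945 had 1 gene, 932 several and 9160 none, and 64 were controls. Gene identifiers of 34741, including all 22 aquaporin probe sets, were found in the RefSeq table (GRCm38.p6) with 0 symbols altered. The brightest probe set by mean log2 intensity stood for its gene, and a gene was called not above background only if none of its probe sets was above on both arrays. Differences were centred by an offset of -0.03 log2. The limit was set from the 86 receptor probe sets, so their share above it on each array is fixed by the chosen percentile. The members and lists were chosen with earlier results of these data known. Named genes were all aquaporin genes, Tek and Kdr, the first 3 measured genes of each list and, in the functional lists, up to 3 on the other side of the limit. Outside this rule, and picked with values in view, are Cnn1, Slc5a2, Hoxb7, Elf5, Foxi1, Tcf21, Gnas, Pnpla2, Mgll and those so described in the text. A planned description of the aquaporin proteins was not run, since no protein sequences were used here. In all 8 list genes were not analysed here, having no probe set with that gene alone. Alternatives were other limits, each array alone, quantile normalization, other probe set rules, no centring and a pseudocount of 50. The calls and centring were tested on simulated data, in which levels of expressed and unexpressed probe sets were kept well apart. Calls of expressed probe sets near the limit were therefore not tested by it. Python 3.11.15, numpy 2.4.6 and pandas 2.3.3 were used.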

Additional observations from a re-analysis of the deposited data

How the results depend on the processing

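Aqp1 was above background under every setting run. The count of aquaporin genes and probe sets, 1 each, was kept at the 99th percentile of the receptor probe sets, at 2 times the limit and after quantile normalization, and the gene count also with any probe set, the median of probe sets and probe sets without a suffix. It rose to 6 genes and 6 probe sets at a limit of 100, and to 8 genes and 12 probe sets at the median of the receptor probe sets (44.5 and 39.8), where 83.2% of all genes passed. Either array alone gave 3 genes and 3 probe sets, adding Aqp2 and Aqp9 without replicate 1, where 64.5% of all genes passed, and Aqp3 and Aqp11 without replicate 2, where 64.3% did. The Aqp1 difference of -0.63 moved by less than the spread of differences above background without centring, after quantile normalization and with a pseudocount of 50, and the median over all 22 probe sets was -0.18. The log2 differences of 8 of 22 probe sets moved by more than that spread with the pseudocount.

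The total of list genes above background, 77, stayed within 1.5 times. Single lists did not. At a limit of 100, proximal tubule genes went from 0 to 6 of 8, ureteric bud genes from 3 to 8 of 12 and neutrophil genes from 2 to 5 of 8. At 2 times the limit, ureteric bud genes fell to 1 and erythroid genes from 7 to 3, and with the median of probe sets smooth muscle genes fell from 4 to 2. On 1 array alone proximal tubule genes reached 0 to 2, ureteric bud genes 5 to 7 and neutrophil genes 3 to 5. No paired analysis was possible because there is 1 group.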
